A study of Bos taurus with 25 samples.

Results

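The livers of 2 Holstein dairy cows that received folic acid and vitamin B12 together were compared with the livers of 3 Holstein cows that received saline. The comparison holds 5 of the 25 arrays of the series, and its arrays were chosen by their labelled tissue and treatment, not by any measured value. The treated animals, cows 32 and 38, received weekly intramuscular injections of 320 mg of folic acid (vitamin B9, as pteroylmonoglutamic acid) and 10 mg of vitamin B12 (as cyanocobalamin), and the control animals, cows 42, 43 and 51, received 5 mL of saline. Biopsies were taken from lactating, multiparous cows 64 ± 3 days after calving, and the ages of the cows are not given in the sources used here. The series holds no other liver array of the combined treatment. Livers of 3 cows given folic acid alone (B9) and of 4 cows given vitamin B12 alone (B12) served for comparison and for the estimate of the spread. Every array was one cow, so the spread between arrays holds differences between animals as well as technical error.

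Folate carries one-carbon units for the synthesis of nucleotides and for the remethylation of homocysteine to methionine. Vitamin B12 is the cofactor of methionine synthase, where it meets the folate cycle, and of methylmalonyl-CoA mutase, through which propionate enters gluconeogenesis. In early lactation the liver of the dairy cow makes most of the glucose that the udder needs from propionate, takes up fatty acids mobilised from fat depots and secretes the acute-phase proteins of inflammation. The question of the comparison was which liver genes differ when both vitamins are given.

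Intensities from a single-colour Agilent bovine array are given on the log2 scale, after background correction and quantile normalization, so that a difference of 1 is a 2-fold difference. Each gene is described by its brightest probe, and levels are compared only between arrays and never between genes. A gene was called apart when its levels in cows 32 and 38 were both above, or both below, the levels of every control cow. The hepatocyte markers were bright on all 5 arrays, with a summed level of 21.21 to 21.24 in the control livers, 21.24 in cow 38 and 21.09 in cow 32. The arrays of cow 32 and of B9 cow 57 stood apart from the rest, with a median correlation of 0.973 and 0.972 with the other liver arrays, against 0.989 to 0.992 for the other 10. The array of cow 32 lay on slide 8 and was scanned on the second scan day together with the arrays of control cow 43 and of cow 37 of the B12 group, and the median signal over local background was 2.30 on it, against 3.58 on control cow 43 and 7.6 to 10.5 on control cows 51 and 42. It also held 568 genes at least 2-fold above and 1622 at least 2-fold below the control mean, against 126 and 113 on the array of cow 38. B9 cow 57, which enters the estimate of the spread, the comparison with B9 and the interaction, held 1015 and 1713 such genes. Levels are therefore given for each cow, and differences within slides for some genes: cow 38 shared slide 4 with control cow 42, and cow 32 shared slide 8 with control cow 43.

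None of the 27841 genes (0%) passed the limma test of B9 + B12 against control, with a threshold of 0.05 on the adjusted p and of 2-fold on the difference. The smallest adjusted p over all probes was 0.689, so it was at least that for every gene of this comparison named here. At an unadjusted p under 0.05, 2492 of 43653 probes passed (5.71%). Without B9 cow 57 limma still counted no gene, while 5088 probes passed at an unadjusted p under 0.05. Cyber-T, a test that shares the spread among probes of like intensity, counted 18 genes in the same values, 3 higher (0.0108% of the genes) and 15 lower (0.0539%). All 18 were apart, and for 15 of them the brightest probe itself passed. With 2 against 3 arrays the exact permutation test cannot give a p below 0.1, and it gave 0.1 for 46 of the 60 named genes, 0.2 for 13 and 0.3 for 1. Most of these genes were named because they were apart on these same arrays. Values at or near 0.1 therefore follow from the choice of genes and are no evidence of a difference.

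Seen without a test, 78 genes (0.28%) were apart and at least 2-fold higher in the mean, and 143 (0.514%) were apart and at least 2-fold lower. Of these, 22 of the higher and 32 of the lower genes were at least 2-fold off the control mean on each treated array. The difference was larger on cow 32 than on cow 38 for 59 of the 78 higher genes and for 116 of the 143 lower genes. Without cow 32 the same description gave 106 higher and 104 lower genes, of which 32 and 44 were shared with the full set; without cow 38 it gave 565 and 1616. Leaving out control cow 43 gave 135 higher genes, and leaving out control cow 42 gave 228. The share of higher genes among those apart was 35.3%, but 53.2% with scaling to the 75th percentile and 55.5% with the processed signal of the scanner, which shifted the median of all genes by 0.28 and 0.16 on the log2 scale. With 75th percentile scaling, 116 genes were apart and higher and 102 lower, and 75 of the 78 higher genes were among them.

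**Figure D1:**
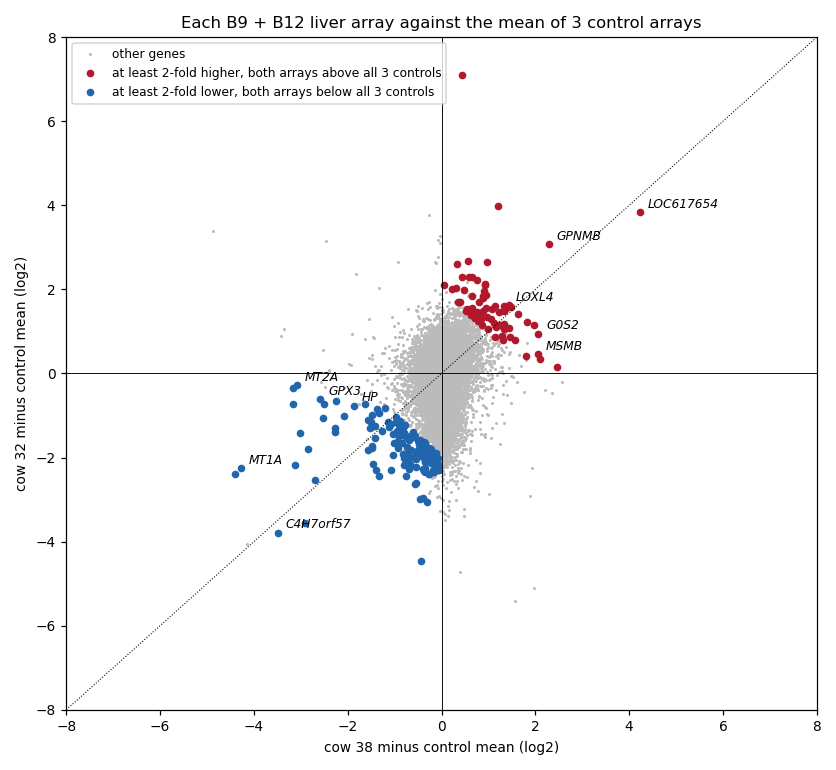
Log2 difference of each gene's brightest probe from the mean of the 3 control liver arrays, on the array of cow 38 (horizontal axis) and of cow 32 (vertical axis); the dotted line marks equal differences. The points scatter further along the axis of cow 32, while LOC617654, GPNMB, MT1A and C4H7orf57 lie far from 0 on both arrays.

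MT1A and neighbouring metallothionein genes were low on both treated arrays. These small cysteine-rich proteins bind zinc and copper, and their genes are induced by metals, glucocorticoids and inflammation. MT1A measured 17.03, 17.81 and 17.73 in control cows 42, 43 and 51, against 15.27 in cow 32 and 13.25 in cow 38. Both treated livers lay below every control, with a log2 difference of -3.26 ± 0.73 (SE), or 9.59-fold lower in the mean, and a Cyber-T adjusted p of 0.00111. The difference was -3.77 within the slide of cow 38 and -2.54 within the slide of cow 32.

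In the RefSeq table of cattle genes (assembly ARS-UCD2.0), MT1A is followed directly by LOC768319, LOC613358 and MT2A, with no gene listed between them, and both LOC genes carry a metallothionein synonym there. LOC613358 measured 16.86, 17.42 and 17.18 in the controls, against 14.77 in cow 32 and 12.74 in cow 38, a difference of -3.40 ± 0.66. LOC768319 measured 11.87, 13.52 and 12.93 in the controls, against 10.58 and 9.64, a difference of -2.66 ± 0.80. Cyber-T counted both, with adjusted p of 0.00036 and 0.0158. For MT2A the controls lay at 13.91, 14.49 and 14.09, cow 32 at 13.88 and cow 38 at 11.08. The difference of -1.68 ± 1.00 thus came mainly from cow 38, its Cyber-T adjusted p was 0.64, and cow 32 was no longer below all controls with either scaling to the 75th percentile. The 4 genes are close relatives, and how far their probes share targets was not tested. Of the 11 members found of a list of metallothionein and zinc handling genes, 4 were apart and higher and 3 apart and lower at any size, where 13.1% and 9.45% of all genes were, and MT1A and MT2A were the 2 that reached 2-fold. The higher members were the zinc importers SLC39A4 (0.85) and SLC39A1 (0.31), MT3 (0.64) and the metal-responsive factor MTF1 (0.26), and the median difference of the list was -0.08.

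MT1A was also below every control in the livers given B12 alone, where it ranged from 14.66 to 16.83 over 4 cows, but not in those given B9 alone, where it ranged from 17.11 to 18.73 over 3 cows. Cow 32 lay within the range of the B12 livers and cow 38 below it, and MT1A differed by -1.54 ± 0.70 from B12 alone and by -3.57 ± 0.73 from B9 alone. The B12 and B9 groups were set against the same 3 control livers, which gave -1.72 for B12 and 0.31 for B9. LOC768319 lay at 13.46 to 15.82 in the B9 livers, the highest mean of the 4 groups, and no B9 liver overlapped with the treated ones.

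Several acute-phase genes were low on both treated arrays. HP, the haemoglobin-binding haptoglobin, measured 17.41, 18.03 and 17.37 in control cows 42, 43 and 51, against 16.84 in cow 32 and 15.74 in cow 38. The difference was -1.32 ± 0.79 at the brightest probe, with a Cyber-T adjusted p of 0.178, and -1.58 and -1.55 at the other 2 probes. One of these, at -1.55, was the one Cyber-T counted, with an adjusted p of 0.0294. HP was not apart with either scaling to the 75th percentile.

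SAA2, a serum amyloid A of the acute phase, measured 18.33, 18.42 and 18.02 in the controls and 16.83 and 17.30 in cows 32 and 38, which did not overlap. The difference was -1.19 ± 0.44 and the Cyber-T adjusted p 0.0463. SAA3 measured 18.56 to 18.68 in the controls and 17.97 and 18.32 in cows 32 and 38. Its difference of -0.46 ± 0.18 was smaller than that of its other 3 probes, -1.35 to -1.06, and it too was not apart with either 75th percentile scaling. In the B12 livers SAA2 stood at 18.31 to 18.32 in 3 cows and at 17.03 in cow 52, so that a low level was also found outside the combined treatment.

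Of 20 members found of the acute-phase list, 9 were apart and lower and 2 apart and higher, against 9.45% and 13.1% of all genes. The list's median was -0.23, against 0.02 for all genes, with -0.10 on cow 32 and -0.18 on cow 38. With the processed signal the median was 0.20, so the direction of the list as a whole depended on the scaling, and it then lay 0.02 above that of all genes. HAMP, which encodes the iron hormone hepcidin, was the member with the largest positive difference: 12.18, 12.88 and 13.32 in the controls, 13.66 in cow 32 and 14.25 in cow 38. That is 1.16 ± 0.37 higher, although all 3 B9 and all 4 B12 livers, at 13.03 to 14.00, lay between the lowest control and cow 38. CFI, the complement factor I that cleaves C3b, measured 16.96 to 17.39 in the controls, 15.24 in cow 32 and 16.91 in cow 38, so its difference of -1.08 ± 0.46 rested on cow 32. None of its 3 other probes was apart, nor was CFI as a mean over probes.

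**Figure D2:**
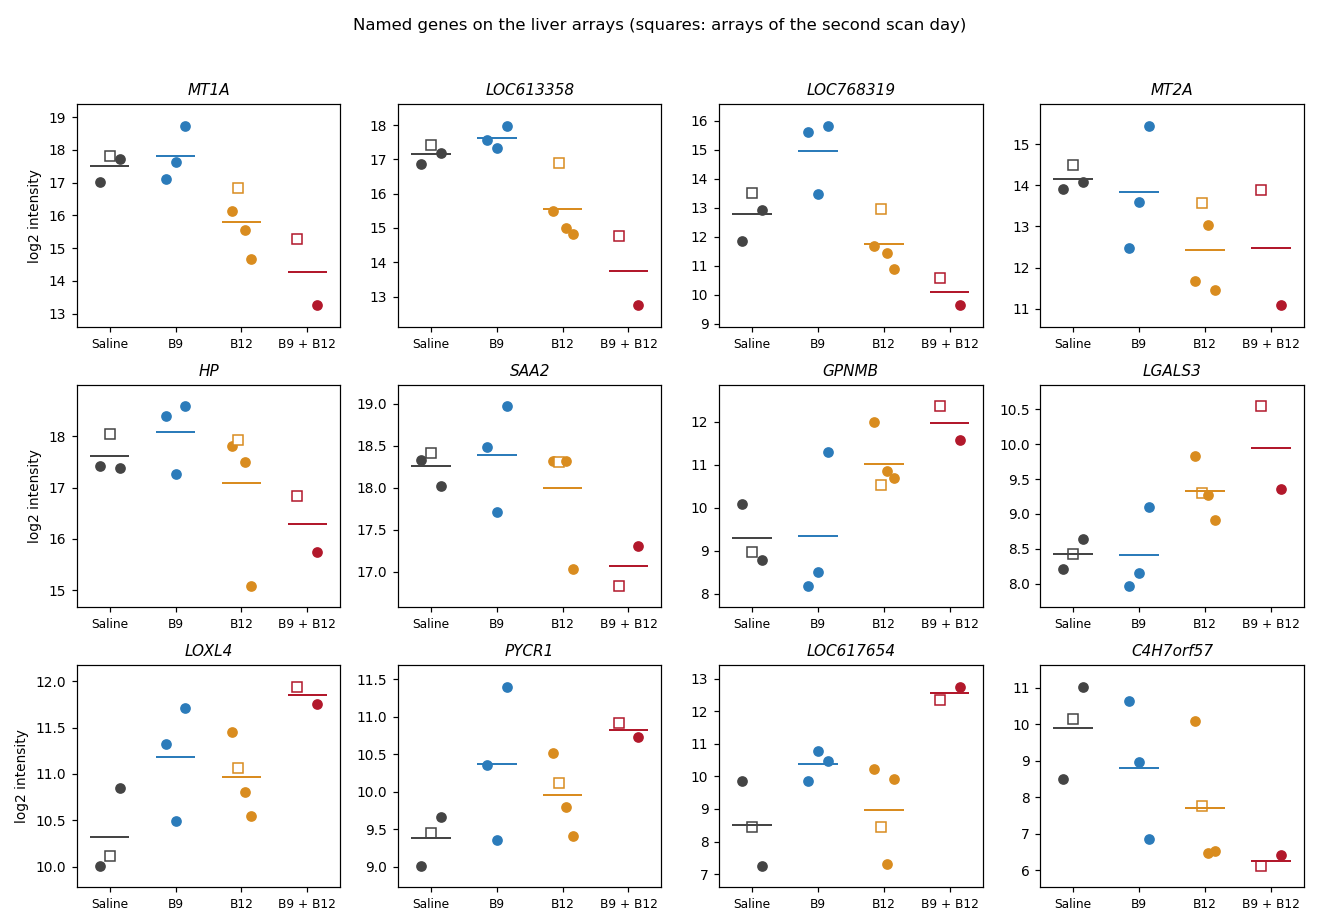
Log2 intensity of the brightest probe of 12 genes on the 12 liver arrays, by treatment; points are cows, bars group means, and open squares the arrays scanned on the second day. The 2 B9 + B12 livers lay beyond all 3 saline livers in every panel, below them for MT1A (15.27 and 13.25) and above them for GPNMB (12.36 and 11.58).

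Genes of lipid-laden macrophages were led by GPNMB, a transmembrane glycoprotein of phagocytes that load up with lipid. GPNMB measured 10.09, 8.98 and 8.79 in the controls, against 12.36 in cow 32 and 11.58 in cow 38. Both treated livers lay above every control, by 2.68 ± 0.85 in the mean or 6.42-fold, and the second probe gave 2.63. The Cyber-T adjusted p was 0.00108. The 4 B12 livers, at 10.53 to 12.00, were also above all 3 controls and overlapped with the treated livers, whereas B9 livers spread from 8.19 to 11.30.

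LGALS3, the galectin-3 of macrophages, measured 8.21, 8.43 and 8.64 in the controls, 10.54 in cow 32 and 9.36 in cow 38, a difference of 1.52 ± 0.41. Of the 16 members found of this list, 6 were apart and higher and 1 apart and lower, against 13.1% and 9.45% of all genes. Beside GPNMB and LGALS3 the higher ones were TREM2 (0.67), a lipid receptor of macrophages, its adaptor TYROBP (0.48), and the tetraspanins CD9 (0.38) and CD63 (0.30), and the lower one was the cathepsin CTSS (-0.80). The list's median was 0.23, with 0.46 on cow 32 and 0.11 on cow 38. The resident macrophage (Kupffer cell) markers gave a summed level of 17.89 to 18.10 in the controls and of 18.01 and 18.05 in the treated livers, within the range of the controls.

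Among genes of the extracellular matrix, LOXL4 differed most. It encodes a lysyl oxidase that crosslinks collagen and elastin. The controls measured 10.01, 10.12 and 10.85, cow 32 measured 11.94 and cow 38 measured 11.75. The difference of 1.52 ± 0.38 was close to even between the treated livers, with 1.74 within the slide of cow 38 and 1.82 within that of cow 32, and its Cyber-T adjusted p was 0.0294. Its B9 livers ranged from 10.50 to 11.71 and its B12 livers from 10.55 to 11.45, below both treated livers but overlapping with the controls.

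COL1A2, a chain of type I collagen, measured 10.02, 9.58 and 9.38 in the controls, against 10.99 and 10.63 in cows 32 and 38, a difference of 1.15 ± 0.41. Its other 5 probes gave 0.03 to 1.15. In the matrix list 5 of 22 members were apart and higher and 1 apart and lower, against 13.1% and 9.45% of all genes. The list's median was 0.31, which was 0.52 on cow 32 and 0.15 on cow 38. SFRP1, a secreted inhibitor of Wnt ligands, measured 10.59, 9.19 and 10.14 in the controls and 9.14 and 8.77 in the treated livers, so that cow 32 lay just below the lowest control. Within slides the difference was -1.82 for cow 38 but -0.05 for cow 32, neither of its 2 other probes was apart, and SFRP1 was not apart as a mean over probes.

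Some genes of sterol and fatty acid synthesis were low on both treated arrays. All 19 members found of the cholesterol synthesis list had a difference below 0, from -1.21 to -0.12. Of them, 8 were apart and lower and none apart and higher, against 9.45% and 13.1% of all genes. The list's median was -0.53, with -0.46 on cow 32 and -0.39 on cow 38. It ranged from -0.72 to -0.25 over all alternatives, the latter with the processed signal.

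MSMO1, a sterol demethylase, measured 16.15, 16.53 and 16.75 in the controls, 14.57 in cow 32 and 15.96 in cow 38, a difference of -1.21 ± 1.02. HSD17B7, a sterol ketoreductase, measured 12.70, 13.22 and 12.79 in the controls against 11.46 and 12.01, a difference of -1.17 ± 0.62. Within slides the median of the list was -0.89 for cow 32 but -0.03 for cow 38. The same list had a median of -0.66 in the B9 and of -0.48 in the B12 livers against the shared controls. B9 cow 57 had the lowest MSMO1 of all 12 livers, at 12.47.

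In the lipogenesis list 6 of 18 members were apart and lower and 3 apart and higher, against 9.45% and 13.1% of all genes. The list's median was -0.35. THRSP, a regulator of lipogenic enzymes, measured 10.03, 11.53 and 10.55 in the controls, 8.97 in cow 32 and 9.21 in cow 38, a difference of -1.61 ± 1.06. ELOVL6, the elongase of C16 fatty acids, measured 10.81, 11.06 and 11.81 in the controls against 9.93 and 9.70. Its 4 other probes ranged from -1.38 to -0.67.

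ACSS2, which activates acetate, the main lipogenic carbon of ruminants, measured 11.45, 12.17 and 11.84 in the controls against 11.10 and 10.19. GPAM, the first enzyme of glycerolipid synthesis, measured 11.13, 11.39 and 12.12 against 10.39 and 10.58, with a difference of -1.06 ± 0.30. Both treated livers were below all controls for each gene. For GPAM all B12 livers, at 10.54 to 11.03, were below all controls too, and the B9 livers ranged from 10.34 to 11.17. G0S2 went the other way: this inhibitor of adipose triglyceride lipase measured 11.23, 12.51 and 11.85 in the controls, 12.81 in cow 32 and 13.93 in cow 38, a difference of 1.51 ± 0.66. Within slides the difference was 2.70 for cow 38 but 0.30 for cow 32. It was similarly high with B12 alone, at 12.81 to 14.45, and in B9 livers it ranged from 12.42 to 14.49.

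**Figure D3:**
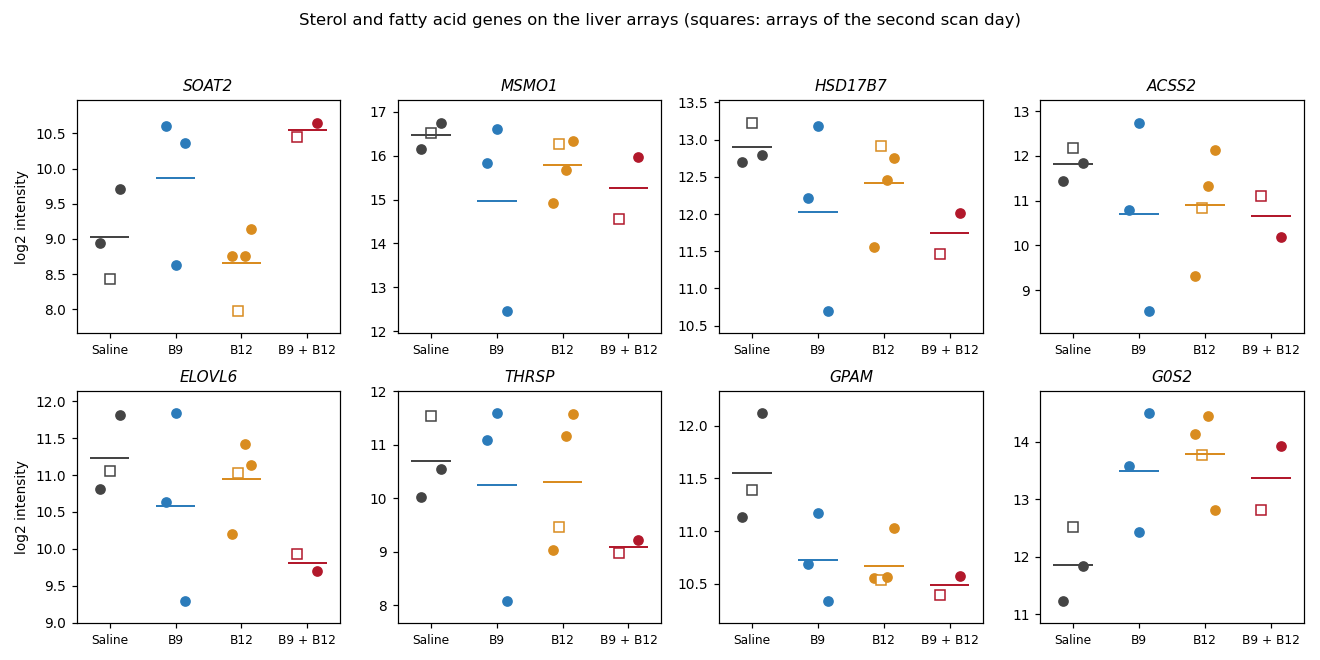
Log2 intensity of the brightest probe of 8 sterol and fatty acid genes on the 12 liver arrays, by treatment; points are cows, bars group means, and open squares the arrays scanned on the second day. ELOVL6 in the treated livers, at 9.93 and 9.70, lay below all saline and B12 livers, while for ACSS2 single B9 and B12 cows lay lower still.

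Other lipid genes were named for the size of their difference. SOAT2, which esterifies cholesterol, measured 8.95, 8.43 and 9.71 in the controls and 10.44 and 10.65 in cows 32 and 38, a difference of 1.52 ± 0.58. Its second probe showed a difference of 0, so the 2 probes disagreed. APOA1, the main protein of high-density lipoprotein, measured 16.42, 15.76 and 16.20 in the controls against 16.92 and 17.43. Its difference of 1.05 ± 0.74 was the same size at its other 2 probes (1.06), while the 14 hepatocyte markers, of which it is one, had a median of -0.06. Fatty acid oxidation and ketogenesis genes ranged from -0.75 to 0.55 with a median of -0.01. Of 22 members, 2 were apart and higher and 1 apart and lower, against 13.1% and 9.45% of all genes. The list's median was 0.25 with the processed signal and 0.18 with 75th percentile scaling, where that of all genes was 0.18 and 0.30.

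Interferon-stimulated genes set the combined treatment against B12 alone. IFI6, an interferon-inducible mitochondrial protein that was chosen here after its values were seen, measured 13.37, 13.08 and 12.99 in the controls and 13.70 and 12.83 in cows 32 and 38, so treated and control livers overlapped. In the 4 livers given B12 alone it measured 16.27 to 17.51, and none of them overlapped with the treated livers. The difference of the combined treatment from B12 alone was -3.62 ± 0.35, with a limma adjusted p of 0.0641, the smallest of that comparison. IFI6 passed the threshold with a normexp offset of 16, without background correction, with 75th percentile scaling, in the authors' table, as a mean over probes and when dim probes were removed. It did not pass with the processed signal, quantiles over both tissues, outlier spots kept, slide or scan day as a block, or array weights.

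IFI27, ISG15 and HERC6, other targets of interferon that were likewise chosen after their values were seen, also had their highest mean with B12 alone. B9 cow 57 was high among the other livers, at 15.25 for IFI27 and 14.57 for ISG15, the latter above B12 cows 40 and 52. IFI27 measured 13.60 to 14.63 in the controls, 14.43 and 13.62 in the treated livers and 16.56 to 17.47 with B12 alone. ISG15, a ubiquitin-like modifier, measured 11.62 to 12.57, 12.28 and 11.27, and 12.94 to 15.97. HERC6, a ligase for ISG15, measured 8.06 to 8.54 in the controls, 7.47 and 7.55 in the treated livers and 8.92 to 10.91 with B12 alone. Its treated livers were below all others.

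Against the controls, 8 of 23 members found of the interferon list were apart and lower and none was apart and higher. Of all genes, 9.45% and 13.1% were. The median of the list was -0.29. This was -0.16 on cow 32 and -0.41 on cow 38, and under every alternative run it lay between -0.52 and -0.11. None of the 8 reached 2-fold. The median of the same genes was 0.71 in the B12 livers against the shared controls, and -1.32 for the treated against the B12 livers. In the whole array limma counted no gene (0%) between B9 + B12 and B12, where 3539 probes (8.11%) passed at an unadjusted p under 0.05 and Cyber-T counted 11.

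**Figure D4:**
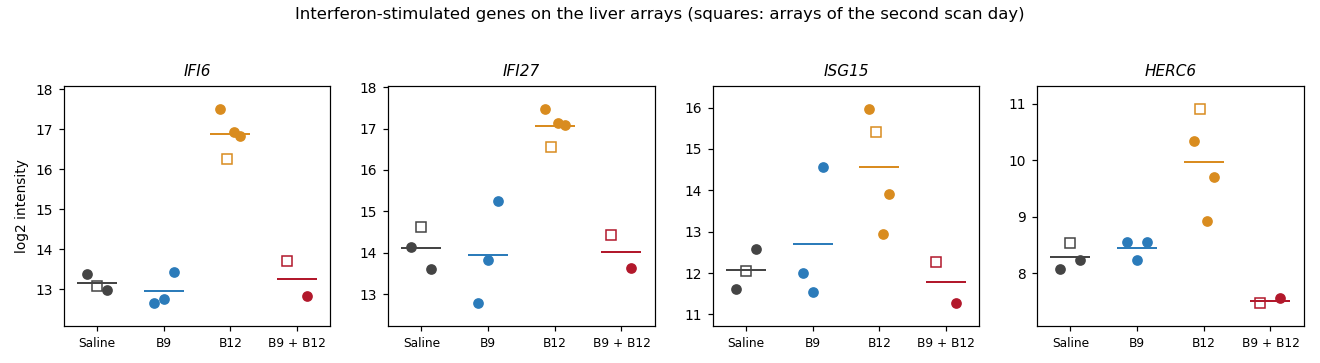
Log2 intensity of the brightest probe of 4 interferon-stimulated genes on the 12 liver arrays, by treatment; points are cows, bars group means, and open squares the arrays scanned on the second day. The B12 livers reached 17.51 for IFI6, while the 2 B9 + B12 livers, at 13.70 and 12.83, spanned the range of the saline livers.

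Against B9 alone limma counted no gene (0%), with a smallest adjusted p of 0.821 and 2124 probes (4.87%) at an unadjusted p under 0.05, while Cyber-T counted 8 genes. Among those 8 were MT1A, LOC613358, LOC768319, HP and LOC617654. For the interaction, which asks whether the joint effect differs from the sum of both vitamins, limma counted no gene (0%), its smallest adjusted p was 1.00, and 1770 probes (4.05%) passed at an unadjusted p under 0.05.

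The folate and methionine cycle lists, which hold enzymes that use the vitamins, had medians near 0. Of the 20 members found of the folate cycle, 4 were apart and higher and 2 apart and lower, against 13.1% and 9.45% of all genes. None reached 2-fold, and the differences ranged from -0.60 to 0.67 with a median of -0.05. The methionine cycle had a median of -0.03 over 14 members, from -0.88 to 0.40, none apart and higher and 2 apart and lower. MTR, the methionine synthase and 1 of the 2 enzymes of mammals that need vitamin B12, measured 7.50, 7.55 and 7.84 in the controls and 7.91 and 7.62 in cows 32 and 38. MMUT, the methylmalonyl-CoA mutase and the other of them, measured 14.45, 14.08 and 14.08 in the controls, 12.89 in cow 32 and 14.53 in cow 38, on opposite sides of the controls. Its difference was -0.49 in the mean, -1.31 on cow 32 and 0.33 on cow 38. These 2 were named for their cofactor, not for their values.

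Genes that carry or process B12 had a median of -0.31 over 11 members, 1 apart and higher and 2 apart and lower. The propionate and gluconeogenesis genes had a median of 0.00 over 16 members, 2 apart and higher and 1 apart and lower. Of all genes, 13.1% were apart and higher and 9.45% apart and lower. Urea cycle genes, 9 in number, had a median of -0.27, which was 0.08 on cow 32 and -0.33 on cow 38, and 0.02 with the processed signal and -0.03 with 75th percentile scaling. The glycogen genes had a median of -0.25 over 11 members and the unfolded protein response one of -0.15 over 16. The latter was -0.89 for cow 32 and 0.41 for cow 38 within slides, 0.07 with the processed signal and 0.01 with 75th percentile scaling. Under these scalings the median of all genes was 0.18 and 0.30, above those of the urea and unfolded protein response lists.

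Single enzymes of amino acid and redox metabolism were apart. PYCR1, which makes proline in mitochondria, measured 9.01, 9.46 and 9.67 in the controls and 10.93 and 10.73 in cows 32 and 38, a difference of 1.45 ± 0.51 that was 1.47 and 1.72 within the slides of these cows. Its second probe gave 0.33. ACMSD, which diverts the kynurenine pathway away from NAD synthesis, measured 13.20, 12.94 and 13.41 in the controls against 12.02 and 12.04, a difference of -1.15 ± 0.34, and its second probe gave -0.84. The treated livers were closer to each other than the controls were. Of the kynurenine and NAD list, 4 of 13 members were apart and lower and 1 apart and higher, against 9.45% and 13.1% of all genes. The list's median was -0.25.

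GPX3, the secreted glutathione peroxidase, measured 12.85, 13.22 and 13.08 in the controls, 12.44 in cow 32 and 10.47 in cow 38, a difference of -1.60 ± 1.37 that the other 3 probes shared (-1.55 to -1.45). The treated livers lay within the range of the B12 livers, 8.33 to 12.80, and cow 32 was not below all controls with the processed signal. GSTA5, an alpha class glutathione transferase, measured 7.63, 7.46 and 7.46 in the controls against 6.30 and 6.73, with a Cyber-T adjusted p of 0.0493. GSTO1, an omega class transferase, measured 12.21, 10.55 and 11.33 in the controls against 12.58 and 13.19. The glutathione and redox list of 25 held 5 members apart and lower and 2 apart and higher, against 9.45% and 13.1% of all genes. Its median of -0.19 was 0.07 with the processed signal and 0.04 with 75th percentile scaling. That of all genes was then 0.18 and 0.30, so the list stayed below it.

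Some uptake carriers of the hepatocyte were low on both treated arrays. SLC22A9, an organic anion carrier, measured 14.39, 14.01 and 14.52 in the controls, 12.02 in cow 32 and 13.23 in cow 38, a difference of -1.68 ± 0.61 with a Cyber-T adjusted p of 0.0493. SLCO1B3, which takes up bile acids and other organic anions, measured 16.45, 16.53 and 16.93 against 15.23 and 15.84, a difference of -1.11 ± 0.30. SLC13A5, a citrate carrier, measured 8.21, 8.33 and 7.65 against 6.77 and 7.24. SLCO1B3 was also below every control in all B9 livers (15.17 to 16.21) and all B12 livers (15.90 to 16.23). SLC22A9 was so in all B12 livers (12.29 to 13.75) but not in all B9 livers (12.43 to 14.43). For SLC13A5 both groups overlapped with the controls. Of 21 transporters 7 were apart and lower and 3 apart and higher, against 9.45% and 13.1% of all genes. Their median was -0.22, and 0.10 with 75th percentile scaling, where that of all genes was 0.30. CYP4V2, a fatty acid hydroxylase, was the only one of 21 drug and steroid metabolising genes that was apart, at 13.63 to 13.96 in the controls, 12.10 in cow 32 and 13.37 in cow 38.

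LOC617654 had the largest positive difference among the genes Cyber-T counted. RefSeq lists it as a transcribed pseudogene. It measured 9.87, 8.43 and 7.25 in the controls, and 12.35 and 12.76 in cows 32 and 38. The treated livers were 4.04 ± 0.90 higher, or 16.4-fold, with a Cyber-T adjusted p of 2.8e-05. They were also above all B9 livers (9.87 to 10.77) and all B12 livers (7.32 to 10.23).

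C4H7orf57, an uncharacterised reading frame, was low on both treated arrays. It measured 8.51, 10.16 and 11.04 in the controls, 6.11 in cow 32 and 6.41 in cow 38, and was well above background on only 1 of the treated arrays. The fitted difference was -3.64 ± 1.28, it ranged from -6.09 to -2.40 over other ways of processing, and the other 3 probes gave -3.50 to -0.84. The B12 livers of cows 40 and 52, at 6.46 and 6.52, and B9 cow 57, at 6.85, were about as low. A further 7 genes that Cyber-T counted have no symbol in the files or the RefSeq table, all of them lower, among them TC326817 with a difference of -3.23 ± 0.95 and ENSBTAT00000011911 with one of -2.32 ± 0.66.

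Several other genes were named for the size of their difference. MYOM1, a sarcomere protein, measured 12.86, 13.59 and 11.97 in the controls against 11.51 and 10.54. Its other 2 probes gave -0.76 and -0.04, and in the single-vitamin livers it ranged from 8.95 to 12.45. TRH, the thyrotropin-releasing hormone, measured 14.71, 16.36 and 15.94 against 13.89 and 14.20, and its second probe gave 0.12. Within slides the difference of TRH was -0.51 for cow 38 and -2.48 for cow 32. NGEF, a guanine nucleotide exchange factor, measured 14.86, 15.27 and 14.93 in the controls and 14.21 in cow 38, and the difference of -1.42 ± 0.44 was larger on cow 32.

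For TRMT13, a tRNA methyltransferase, and SPTSSB, a subunit of serine palmitoyltransferase, the difference lay mostly on cow 32. Their levels there were 7.96 and 7.29, against 10.53 and 8.67 in cow 38. Both genes were below every control on both arrays.

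Among the higher genes, NNAT, the imprinted neuronatin, measured 8.39, 8.52 and 7.72 in the controls, 10.89 in cow 32 and only 8.78 in cow 38. H19, an imprinted noncoding RNA, measured 7.46 to 7.71 in the controls, 9.60 in cow 32 and 8.10 in cow 38. S100A1, a calcium sensor, measured 9.37, 8.44 and 9.38 against 10.64 and 10.55, an even difference of 1.53 ± 0.57. MSMB, a small secreted protein, was close to the lower end of the scale in the controls, at 6.28 to 6.33, and measured 6.77 in cow 32 and 8.36 in cow 38.

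The next 2 genes were well above background on all 3 controls and on neither treated array. TAC1, the precursor of substance P, was at least 1.82-fold lower, since the controls averaged 6.91 and the treated arrays 6.05, and SERPINI2, a serine protease inhibitor, at least 1.27-fold lower. Without control cow 43, the highest at 7.94, the difference of TAC1 was -0.35. That of SERPINI2 was -0.23 without the same control and -0.0042 with 75th percentile scaling, where neither gene was apart. A list of 22 genes for this comparison, which holds only a part of those reported and was chosen on these same arrays and so no independent evidence, had 15 members that were found by symbol. Of these, 13 were apart and 12 were apart and at least 2-fold off. The 2 that were not apart were SH3YL1, at 11.91 to 12.69 in the controls, 9.84 in cow 32 and 12.12 in cow 38, and SLC9B1, which was well above background on neither treated array and on 2 of the 3 controls, so that its difference has no fixed size.

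Markers of several other cell types were higher on the treated than on the control arrays. In a biopsy, a change in the number of cells of a type and one in the RNA per cell cannot be told apart. Of 20 T and natural killer cell markers, 10 were apart and higher and none apart and lower, against 13.1% and 9.45% of all genes, with a median of 0.48, which was 0.65 on cow 32 and 0.22 on cow 38. Their summed level was 14.47 to 14.74 in the controls, 15.60 in cow 32 and 14.93 in cow 38. B9 cow 57 reached 15.06, above cow 38, while the other B9 and B12 livers lay at 14.48 to 14.77. Every marker was well above background on at least 1 of the 5 arrays. GZMB, the granzyme B of cytotoxic cells, measured 8.32, 8.96 and 8.46 in the controls against 10.18 and 9.90, a difference of 1.46 ± 0.47. CCL19, a chemokine of lymphoid tissue, measured 7.66, 8.10 and 8.50 against 9.24 and 10.05, a difference of 1.56 ± 0.51.

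Plasma and B cell markers had a median of 0.62 over the 7 found. Of these, 3 were apart and higher and none apart and lower, against 13.1% and 9.45% of all genes. Their summed level was 10.94 to 11.89 in the controls, 12.33 in cow 32 and 11.95 in cow 38. B9 cows 39 and 57, at 12.27 and 12.42, were above cow 38, and the other B9 and B12 livers, at 10.86 to 11.82, below it. MZB1, a chaperone of immunoglobulin assembly, measured 8.49, 7.80 and 7.35 against 9.58 and 8.67. Endothelial markers were apart and higher in 6 of 11 and apart and lower in none, with a median of 0.43 and a summed level of 14.45 to 14.67 in the controls against 14.81 and 14.77. The B9 and B12 livers lay at 14.26 to 14.59. The stellate cell and fibroblast markers, which include COL1A2, had a summed level of 14.68 to 15.04 in the controls against 15.23 and 15.05. B9 cow 57 stood at 15.09, above cow 38, and the other B9 and B12 livers at 14.33 to 15.03. What part these cells had in the higher immune and matrix genes was not tested.

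Neutrophil markers gave 13.11 to 13.76 in the controls against 13.19 and 12.92, with 1 of 12 well above background on none of the 5 arrays. Cholangiocyte markers gave 11.85 to 11.99 in the controls against 12.23 and 12.20. Erythroid, muscle and adipocyte markers had medians of 0.01, 0.05 and 0.17, and 2 of 9 erythroid and 3 of 10 muscle markers were well above background on none of the 5 arrays.

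Milk protein genes were detected in these livers. All 6 members found of the mammary list were apart and higher, against 13.1% of all genes. Their median was 0.78, with 0.56 on cow 32 and 1.02 on cow 38. Their summed level was 10.18 to 10.25 in the controls against 10.94 and 11.24. PAEP, the beta-lactoglobulin of milk, measured 9.08, 8.93 and 8.97 in the controls against 9.86 and 10.13, a difference of 1.01 ± 1.06. The standard error exceeded the difference. PAEP ranged from 8.43 to 12.54 with B12 alone, and the summed level there reached 13.68. Both treated livers lay within the range of the B12 livers. Whether the milk genes bear on any other difference was not tested.

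Housekeeping groups were described in the same way, beside 13.1% of all genes apart and higher and 9.45% apart and lower. The 78 cytosolic ribosomal protein genes had a median of 0.17, with 20 apart and higher and 1 apart and lower, and the 75 respiratory chain genes one of 0.10, with 8 and 3. With the processed signal the 2 medians were 0.55 and 0.39, and with 75th percentile scaling 0.50 and 0.35, where the median of all genes was 0.18 and 0.30. The 38 proteasome genes had a median of -0.02, with 1 and 6. The cell cycle list had a median of 0.01 over 21 members, with 0.25 on cow 32 and -0.24 on cow 38. In this list, as for MHC class I (0.24 and -0.32) and class II (0.37 and -0.13), the treated livers lay on opposite sides of the control mean.

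**Figure D5:**
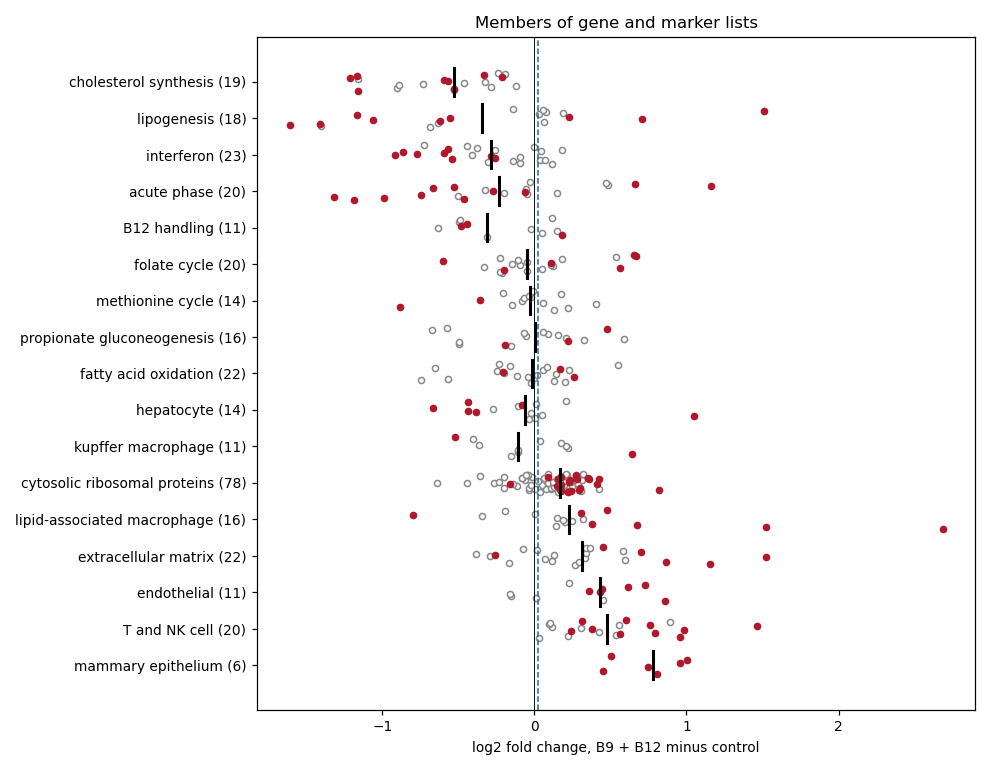
Log2 fold change (B9 + B12 minus control) of the members of 17 gene and marker lists, each point a gene and the number of genes in parentheses; filled points are genes whose treated arrays lay on the same side of all 3 controls, black bars list medians, and the dashed line the median of all genes (0.02). The cholesterol synthesis list lies below 0 (median -0.53), and the T and natural killer cell (0.48) and mammary lists (0.78) above it.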

How the data were processed

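RNA from liver biopsies was hybridised to single-colour (Cy3) Agilent bovine 4x44K arrays. The authors deposited scanner files with the spot intensity, per the file headers from Agilent Feature Extraction 10.7.3.1 (9.1 in the submitters' processing notes), and a table of log2 values made by normexp correction and between-array normalization. That table differed by a median of 0.0253 (log2) from normexp with an offset of 16 and quantiles, and served as an alternative.

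Here the median intensity of the spots was background-corrected (normexp, offset 50) and quantile-normalized over the 12 liver arrays, outlier spots were dropped and the spots of a probe averaged, in limma 3.58.1 (R 4.3.3). Group means were fitted over all 12 arrays, and p-values adjusted over 43653 probes by Benjamini-Hochberg. Genes with a probe below an adjusted p of 0.05 and with a difference of 2-fold or more were counted. Cyber-T, the test in the authors' methods, was run with a confidence of 10. Of all probes, 23509 (53.9%) had a gene symbol in the RefSeq table. Scripts were tested on simulated data. The number of arrays, 2 against 3, limits the precision.

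The genes and lists were chosen with earlier results of these data known. Named genes were those set for the comparison, those the study listed, the 10 largest differences each way with a symbol, apart and well above background on all 5 arrays, up to 5 each way well above background in 1 group alone, list members at least 2-fold off and apart, and the genes counted by limma or Cyber-T.

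Alternatives were other signals, offsets, scalings and probe rules, the authors' table, Cyber-T, slide or scan day as a block, array weights and leaving out arrays. Some named genes are not reported here.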

Additional observations from a re-analysis of the deposited data

Results flagged for a closer look

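Among the 4 liver arrays of B12 alone, which serve as a comparison group, 8 of 60 named genes had 1 array that lay far from the other 3, measured as its gap to the nearest array over the whole range of the group. Chance gives such a gap in about 1 in 20 groups. Cow 52 held the lowest HP (15.09 against 17.50 to 17.93, ratio 0.847), the lowest SAA2 (17.03 against 18.31 to 18.32, ratio 0.989), the highest GPAM (11.03 against 10.54 to 10.56, ratio 0.957) and the highest NM_001076983 (9.49 against 7.79 to 7.97, ratio 0.891). Cow 36 held the lowest CFI (16.34 against 16.85 to 16.91, ratio 0.887) and the highest SERPINI2 (8.05 against 6.06 to 6.12, ratio 0.967). Cow 37 held the highest NNAT (9.99 against 8.39 to 8.61, ratio 0.862) and the lowest SLC9B1 (6.01 against 6.26 to 6.30, ratio 0.862).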

How the results depend on the processing

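No paired analysis was possible because the groups compared hold different cows, share no replicate number, and the milk-yield block of each cow is not given in the sources used here. A slide is a batch and pairs no cows; it was run as a block and through differences within slides. The limma count of B9 + B12 against control stayed at 0 under every change of signal, scaling, probe rule, block and weight that was run. Cyber-T counted 18 genes against control, 11 against B12 and 8 against B9. With the authors' values it counted 17 against control, 13 against B12 and 9 against B9, and 14 genes against control were shared. Against B12, 1 gene (IFI6) was counted with an offset of 16, without background correction, with 75th percentile scaling, in the authors' table, without dim probes and as a mean over probes. With the processed signal, quantiles over both tissues, outlier spots kept, a block or array weights, limma counted none.

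Leaving out each of the 12 liver arrays in turn gave 0 to 66 genes against control, 0 to 84 against B12, 0 to 28 against B9 and 0 to 11 for the interaction, the highest always without cow 38 and the counts above 0 only without a treated array. A lone treated array is assumed to vary like the other groups. Without cow 32 the 6 genes against control included ANO4 and DDX10 and none of the named genes. Without the treated and the control array of the second scan day (cows 32 and 43, with B12 cow 37 kept) the counts were 5, 5, 4 and 2. Leaving out 1 array gave 78 to 565 genes apart and at least 2-fold higher, and 104 to 1616 lower.

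The higher genes numbered 228 without control cow 42, 135 without control cow 43, 118 without cows 32 and 43, 134 with an offset of 16, 140 without background correction, 133 in the authors' table and 730 with the processed signal. The lower genes numbered 585 with the processed signal and 230 for differences within slides. The value of SLC9B1, which is not well above background on either treated array and so has no fixed sign, was 0.19 with 75th percentile scaling. Scan day as a block, lists restricted to bright probes and leaving out B9 and B12 arrays were added after the data were seen. Causes of these differences were not tested. No other of the 60 genes named by rule changed direction in the alternatives run. For genes named outside it, only the counts were run through them, not the differences.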
